A study of Mus musculus with 6 samples.

Results

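The 8 genes described here encode channels, carriers and an enzyme by which pancreatic ducts secrete bicarbonate and fluid. They were chosen by name (Cftr, Slc4a4, Slc26a6, Car2, Aqp1, Aqp5, Slc12a2 and Kcnn4) and matched through their Ensembl identifiers. No filter on their values was used, but earlier results of these data were known when they were chosen. All 8 were found among the 22556 genes of the expression tables. RNA was sequenced from the whole pancreas of wild-type C57BL/6 mice aged 8 weeks per the labels, and male per the study's methods. The 6 mice formed 3 groups of 2: mice given saline, mice with acute pancreatitis (AP) raised by caerulein, and mice given polyI:C before the same caerulein course (polyI:C-pretreated AP, called pretreated mice from here on). Caerulein, a cholecystokinin analog that overstimulates acinar cells, was injected intraperitoneally 10 times at 200 μg/kg, 1 h apart, and organs were taken 24 h after the first injection. PolyI:C, a synthetic double-stranded RNA that Toll-like receptor 3 senses, was given once at 10 mg/kg, either 1 or 8 h earlier, and the labels do not say which interval these mice had. The comparisons ask how the genes differ between AP and saline pancreas, and whether pretreatment with polyI:C alters that difference. Each group is 2 samples of whole tissue, and the labels do not say how the mice were handled, so the p-values measure only the spread between these samples.

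Pancreatic ducts turn a small chloride-rich acinar fluid into a large bicarbonate-rich juice that flushes enzymes into the gut and keeps them at alkaline pH. Bicarbonate enters a duct cell through the basolateral sodium-bicarbonate cotransporter Slc4a4 or is made inside it by carbonic anhydrases such as Car2. It leaves across the apical membrane through the chloride and bicarbonate channel Cftr and the chloride-bicarbonate exchanger Slc26a6. Slc12a2 loads cells with chloride from the blood side, the calcium-activated potassium channel Kcnn4 keeps the cell electrically negative, and the aquaporins Aqp1 and Aqp5 let water follow. Several of the 8 are also made by other cells: Aqp1 is abundant in capillaries and red cells, Kcnn4 in leukocytes and red cells, Car2 in red cells and gut, and Slc12a2 in acinar cells.

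Levels are given as TPM, a share of the transcripts of the 22556 listed genes in each library, after correction for gene length. Of 17 acinar markers only 7 are among the listed genes. Read depth was estimated from the spacing of low TPM values, and ranged from 3296337 reads in saline replicate 2 to 10851616 reads in polyI:C-pretreated AP replicate 2. Precision was therefore lowest in the saline mice, where Cftr rested on about 15 and 16 reads and Aqp5 on about 1 and 4. One library, called the gut-bearing library from here on, stood apart. In polyI:C-pretreated AP replicate 2, 24 genes of the small-intestinal epithelium (a list chosen after the data were seen) summed to 5613 TPM, against 32.2 to 46.3 TPM in the other 5 libraries. All 24 were detected there, whereas 8 to 12 of them were at 0 in each of the others. Fabp1, a fatty acid binding protein of enterocytes, was at 1430 TPM in it and between 0 and 3.35 TPM elsewhere.

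Cftr, Slc26a6, Slc4a4 and Car2 were far higher in that library than in the other mouse of its group. The ratio of replicate 2 to replicate 1 was 8.34 for Car2, 4.13 for Slc4a4, 3.86 for Slc26a6 and 3.80 for Cftr, while it was 1.60 for Kcnn4, 1.16 for Slc12a2, 1.13 for Aqp1 and 0.561 for Aqp5. A ratio of replicate 2 to replicate 1 of at least 3, taken on TPM + 0.5, was found for 4 of the 8 genes in this group, against 4.7% of all tested genes, and for 0 of the 8 in the saline and AP groups, where the share over all genes was 4.14% and 3.39%. Without the added 0.5, Aqp5 had a ratio of 4.92 in the saline group, on about 1 and 4 reads. How far the gut transcripts account for the levels of Cftr, Slc26a6, Slc4a4 and Car2 was not tested. The comparisons of the 8 genes are given with and without the gut-bearing library.

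**Figure D1:**
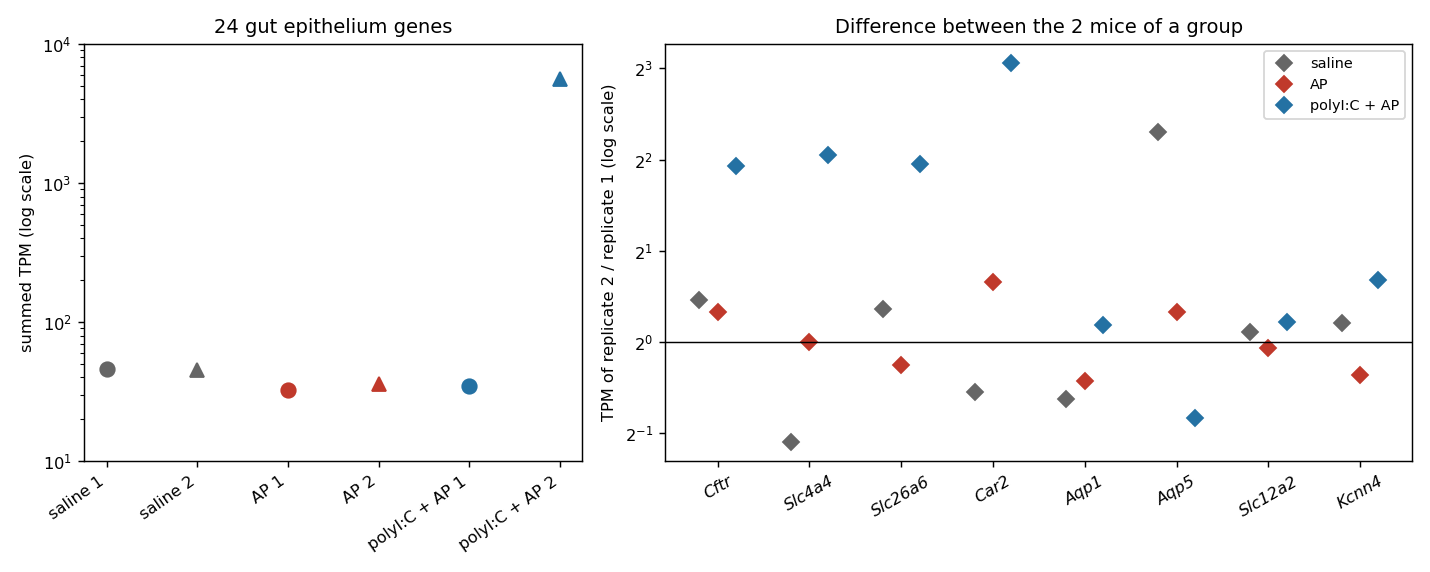
Left, summed TPM (log scale) of 24 gut epithelium genes in each of the 6 libraries. The sum is 5613 TPM in polyI:C-pretreated AP replicate 2 and at most 46.3 TPM in the others. Right, the ratio of replicate 2 to replicate 1 (log scale) for each of the 8 genes in each group. The pretreated group reaches 8.34 for Car2 and lies between 3.80 and 4.13 for Cftr, Slc26a6 and Slc4a4. The saline group reaches 4.92 for Aqp5.

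In the saline pancreas, Slc12a2 was the highest of the 8 by TPM, at 98.5 ± 5.42 TPM (SD, n = 2), followed by Aqp1 at 70.9 ± 21.4 and Slc26a6 at 14.3 ± 2.51. Slc4a4 came next at 3.75 ± 1.93 TPM. Car2 (1.70 ± 0.452 TPM), Kcnn4 (1.59 ± 0.160) and Cftr (1.52 ± 0.341) had overlapping ranges, and Aqp5 was lowest at 0.757 ± 0.709. In AP mice, Slc12a2 (106 ± 3.36 TPM) and Aqp1 (66.4 ± 13.7) still led, and Cftr, Slc26a6, Car2 and Kcnn4 lay together, with means of 7.61, 7.27, 7.11 and 6.56 TPM and overlapping ranges.

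**Figure D2:**
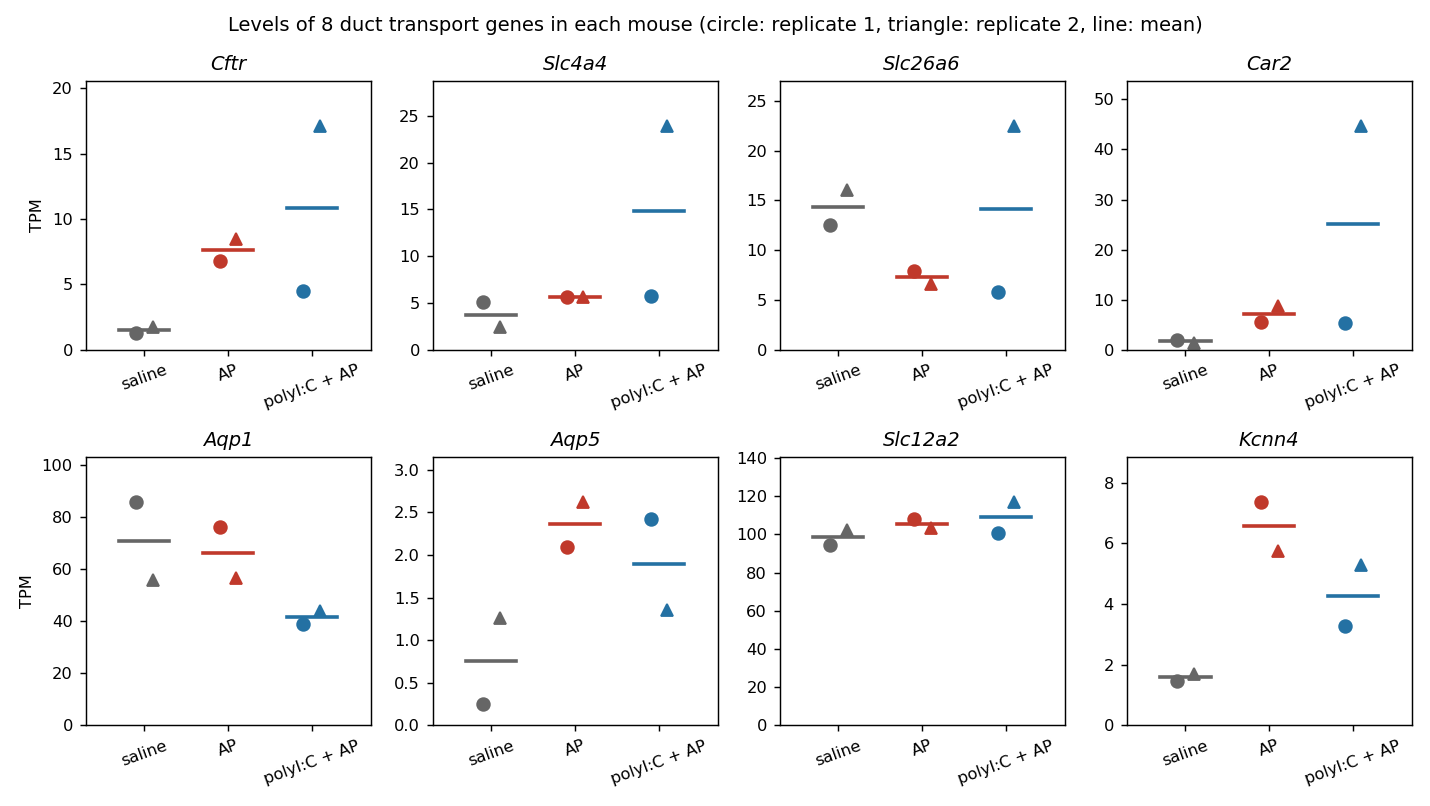
TPM of the 8 genes in each mouse (circle, replicate 1; triangle, replicate 2; line, mean of the 2 mice), each panel with its own axis from 0. For Cftr and Kcnn4 both AP points lie above both saline points, Slc12a2 hardly moves, and for Cftr, Slc4a4, Slc26a6 and Car2 the pretreated mean lies between 1 high and 1 low mouse.

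Compared with saline mice, AP mice had more Cftr and Kcnn4 transcript, by 4.02-fold and 3.36-fold on the TPM + 0.5 scale. These 2 of the 8 rose past the threshold of the linear model (limma over 16778 genes, with a threshold of 2-fold and an adjusted p of 0.05), and 0 fell. Over all tested genes, 18.2% were called higher and 4.03% lower, so 2 of 8 is near the background. The groups did not overlap for 6 genes that were higher in AP mice and for Slc26a6, which was lower, and over all genes 52.7% were higher and 16.4% lower without overlap. The median log2 change was 0.95 for the 8 genes and 0.45 for all tested genes. After median-of-ratios scaling, which brings the median over all genes to 0.06, the median of the 8 was 0.62, 1 of the 8 was called higher and 0 lower, and over all genes the calls moved from 3055 higher and 676 lower to 1593 higher (9.49%) and 1204 lower (7.18%). Without the gut-bearing library 3 of the 8 were called higher (Cftr, Kcnn4 and Car2) and 0 lower, where the shares over all genes were 17.3% and 3.85%. That library is in neither group, so the changes themselves kept their size, and Slc4a4, Aqp1, Aqp5 and Slc12a2 had adjusted p of 0.253, 0.849, 0.159 and 0.434 without it. With 2 mice a group, the smallest two-sided p of an exact permutation test on a single gene is 0.333, and the calls rest on spread shared across genes.

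Cftr forms the main apical anion channel of duct cells, and its loss causes cystic fibrosis. It was measured at 1.28 and 1.76 TPM in saline mice and at 6.75 and 8.46 TPM in AP mice. It was at 4.50 and 17.1 TPM in pretreated mice. All 4 caerulein-treated mice were above both saline mice, and the pretreated mice lay on either side of the AP mice. The log2 change in AP against saline mice was 2.01 (SE 0.54, adjusted p = 0.0237). It kept this size without the gut-bearing library (SE 0.23, adjusted p = 0.00593). The call was lost after median-of-ratios scaling (1.65, adjusted p = 0.0598). It was also lost without any 1 of the saline or AP mice, with adjusted p from 0.0888 to 0.175. Cftr (ENSMUSG00000041301, GRCm38 chromosome 6, 18170687 to 18322768, plus strand) shares 129 exon bases with the antisense gene Gm15592, which was not analysed here.

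Slc26a6, which exchanges luminal chloride for bicarbonate, showed the opposite direction in AP. Its levels were 12.5 and 16.1 TPM in saline mice, 7.90 and 6.64 in AP mice, and 5.83 and 22.5 in pretreated mice. Both AP mice were below both saline mice, and the pretreated mice spanned the whole range. The log2 change in AP against saline mice was -0.92 (SE 0.54, adjusted p = 0.224), which did not pass. Without the gut-bearing library it reached adjusted p = 0.0269 at the same size, 1.90-fold, short of 2-fold. After median-of-ratios scaling the change was -1.34, which is 2.53-fold (adjusted p = 0.113), and with both steps together it was -1.34 and called lower (adjusted p = 0.0155). In the remaining pretreated mouse Slc26a6 was lower than in saline mice, with a log2 change of -1.22 (adjusted p = 0.0316), past both thresholds, whereas with both pretreated mice the change was -0.29 (adjusted p = 0.709). Slc26a6 (ENSMUSG00000023259) lies on chromosome 9, 108853283 to 108913049.

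Slc4a4, the cotransporter that brings bicarbonate into duct cells from the blood side, was at 5.12 and 2.39 TPM in saline mice and at 5.60 and 5.59 TPM in AP mice. In pretreated mice it was at 5.79 and 23.9 TPM. Apart from the gut-bearing library, the 5 values lay between 2.39 and 5.79 TPM. The log2 change was 0.60 (SE 0.61, adjusted p = 0.480) in AP against saline mice and 1.02 (SE 0.61, adjusted p = 0.530) in pretreated against AP mice. The latter was 0.05 (SE 0.43) without the gut-bearing library. Slc4a4 (ENSMUSG00000060961) lies on chromosome 5, 88886818 to 89239653.

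Slc12a2, the sodium-potassium-chloride cotransporter, was the steadiest of the 8. Saline mice had 94.7 and 102 TPM, AP mice 108 and 103, and pretreated mice 101 and 117. In AP against saline mice the log2 change was 0.10, with a 95% interval from -0.15 to 0.35 (adjusted p = 0.494), on the TPM scale. This interval leaves out changes of 2-fold in either direction. After median-of-ratios scaling the sign turned, to -0.33 (adjusted p = 0.0716 by limma). After upper-quartile scaling the change was -0.36 (adjusted p = 0.0429 by limma), short of 2-fold. On the TPM scale the median gene was higher in AP mice by 0.45, more than Slc12a2. Slc12a2 is ENSMUSG00000024597 (chromosome 18, 57878678 to 57946821).

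Kcnn4, the intermediate-conductance calcium-activated potassium channel, was at 1.48 and 1.70 TPM in saline mice. It was at 7.38 and 5.73 TPM in AP mice and at 3.29 and 5.27 TPM in pretreated mice. The 3 groups did not overlap, with the pretreated mice between the others. The log2 change was 1.75 (SE 0.30, adjusted p = 0.00419) in AP against saline mice. It was also called after median-of-ratios scaling (1.39, adjusted p = 0.0153) and without the gut-bearing library (1.75, adjusted p = 0.0104), and it was lost without AP replicate 1 (1.58, adjusted p = 0.0626). In pretreated against AP mice it was -0.58 (SE 0.30, adjusted p = 0.463), which did not pass, and -0.89 (adjusted p = 0.553) without the gut-bearing library. Kcnn4 (ENSMUSG00000054342) lies on chromosome 7, 24370263 to 24386690.

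Leukocytes also carry Kcnn4, and the summed level of their markers was highest in AP mice too. The 14 leukocyte markers summed to 540 and 359 TPM in saline mice, 2126 and 2391 in AP mice, and 309 and 204 in pretreated mice. Of the 12 tested, 7 rose in AP against saline mice. In pretreated against AP mice 3 fell, Lyz2, Itgam and Csf1r (log2 changes of -3.68, -2.36 and -1.97). Without the gut-bearing library, which leaves 1 pretreated mouse, these changes were -3.30, -2.34 and -1.91. The leading gene of the sum was Lyz2, the lysozyme of macrophages, at 444 and 307, 1891 and 2118, and 203 and 119 TPM. The sum is mostly this gene. Without it the other 13 markers summed to 96.3 and 52.1 TPM in saline mice, 235 and 273 in AP mice, and 105 and 84.7 in pretreated mice, with the pretreated mice overlapping the saline mice. Against saline, 1 marker was called higher in pretreated mice and 2 lower. The first was Cd68, of macrophages, at 6.63 and 5.09 TPM in saline mice. It was at 53.4 and 49.99 TPM in AP mice and at 23.2 and 19.3 TPM in pretreated mice. In pretreated mice Cd68 and the leukocyte marker Itgam lay between the other groups, as Kcnn4 did. Other leukocyte markers did not share this order. The 2 called lower, Lyz2 and Csf1r, were below both saline mice, and Adgre1, Itgb2 and Ptprc overlapped the saline mice. The part of leukocytes in the level of Kcnn4 was not tested. In whole tissue, fewer cells of a type and less RNA per cell cannot be told apart, here and for each result that follows.

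Car2, the cytosolic carbonic anhydrase that makes bicarbonate from CO2, was at 2.02 and 1.38 TPM in saline mice. It was at 5.51 and 8.71 TPM in AP mice and at 5.36 and 44.7 TPM in pretreated mice. Both AP mice were above both saline mice, and the highest value was in the gut-bearing library. The log2 change in AP against saline mice was 1.78 (SE 0.86, adjusted p = 0.146). Without the gut-bearing library the same change had an SE of 0.39 and passed (adjusted p = 0.0272). With scaling added it did not (1.41, adjusted p = 0.0595). Saline levels rested on about 7 and 4 reads. Red cell markers, of which 5 of 7 had values, summed to 206 and 239 TPM in saline mice, 134 and 292 in AP mice, and 73.3 and 44.1 in pretreated mice, and 0 of the 5 passed in AP against saline mice. Car2 (ENSMUSG00000027562) lies on chromosome 3, 14886273 to 14900770.

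Aqp1, the water channel of capillaries, red cells and duct cells, was at 86.0 and 55.8 TPM in saline mice. It was at 76.1 and 56.6 TPM in AP mice and at 38.9 and 44.1 TPM in pretreated mice. Saline and AP mice overlapped, and both pretreated mice were below all 4 others. The log2 change was -0.08 (SE 0.24, adjusted p = 0.832) in AP against saline mice. In pretreated against AP mice it was -0.66 (SE 0.24, unadjusted p = 0.0282 and adjusted p = 0.282 by limma), which did not pass, and -0.75 (adjusted p = 0.622) without the gut-bearing library. In pretreated against saline mice it was -0.74 (adjusted p = 0.0463), short of 2-fold, and after median-of-ratios scaling -1.19 (adjusted p = 0.0119), past both thresholds. The 12 endothelial markers summed to 95.4 to 156 TPM in saline mice, 131 to 149 in AP mice and 117 to 176 in pretreated mice. Of the 12, 0 were called in any comparison, and in the unscaled fit to all 6 mice Aqp1 was not called either. The red cell sum was lowest in the same 2 mice as Aqp1, and 3 of its 5 genes fell in pretreated against saline mice. Its gene Alas2 was not lower there, at 7.76 and 6.08 TPM against 4.51 and 6.03 TPM in saline mice. The part of either cell type in the level of Aqp1 was not tested. Aqp1 (ENSMUSG00000004655) lies on chromosome 6, 55336432 to 55348555.

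Aqp5, the apical water channel of secretory glands, was the least expressed of the 8. It was at 0.256 and 1.26 TPM in saline mice, 2.10 and 2.63 in AP mice, and 2.42 and 1.36 in pretreated mice. All caerulein-treated mice were above the saline mice, the closest pair being 1.36 and 1.26 TPM. No more than about 18 reads stood behind any value. The log2 change was 1.31 (SE 0.60, adjusted p = 0.131) in AP against saline mice and -0.29 (SE 0.60, adjusted p = 0.890) in pretreated against AP mice. Neither passed, and at this depth the intervals, from -0.13 to 2.74 and from -1.73 to 1.15, hold changes of 2-fold. Aqp5 (ENSMUSG00000044217) lies on chromosome 15, 99590782 to 99594829.

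Pretreatment with polyI:C was not followed by a called change in any of the 8 genes against AP alone. limma called 0 of 8, with 1 (Aqp1) at an unadjusted p below 0.05, and voom on the estimated reads also called 0 of 8, with 1 at an unadjusted p below 0.05. Over all genes 0.441% were called higher and 0.405% lower. The groups did not overlap for Slc4a4, which was higher in pretreated mice, and for Aqp1 and Kcnn4, which were lower, against 27.7% of all genes higher and 22.1% lower without overlap. The intervals were wide. The 95% interval of the log2 change ran from -1.06 to 1.50 for Cftr and from -0.92 to 3.18 for Car2, and only Slc12a2, from -0.21 to 0.29, left out 2-fold on both sides. Without the gut-bearing library the log2 changes of Cftr (-0.69), Slc26a6 (-0.29) and Car2 (-0.34) turned from higher to lower, Aqp5 and Slc12a2 were at 0.036 and -0.065, and the median of the 8 went from 0.13 to -0.32, while the median over all genes was 0.04 and 0.05. In that fit the group is 1 mouse, assumed to vary like the others, and 0 of 16552 genes were called.

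**Figure D3:**
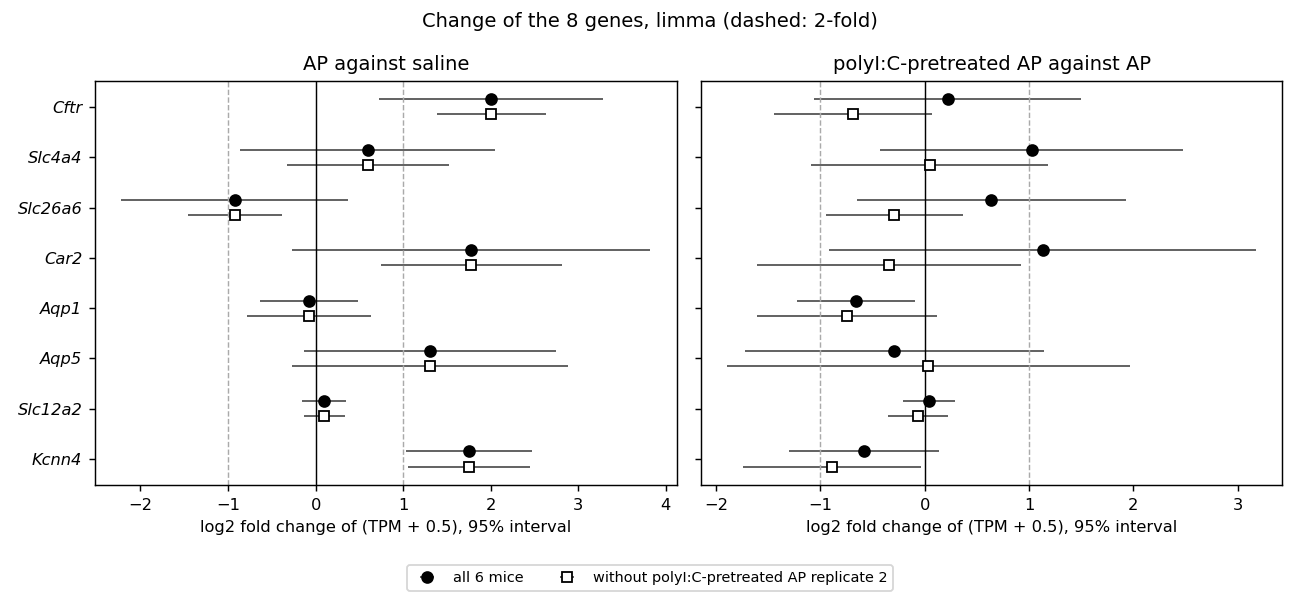
Log2 fold change of TPM + 0.5 with its 95% interval for the 8 genes, in AP against saline mice (left) and pretreated against AP mice (right), from all 6 mice (filled circles) and without polyI:C-pretreated AP replicate 2 (open squares). Dashed lines mark 2-fold. Left, the intervals of Cftr and Kcnn4 lie above 0 in both fits. Right, the open squares of Cftr, Slc26a6, Car2, Aqp5 and Slc12a2 lie on the other side of 0 from the circles. Those of Aqp5 and Slc12a2 are at 0.036 and -0.065.

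Against saline mice, the pretreated mice had 3 of the 8 genes called higher and 0 lower, where 17% of all genes were higher and 2.99% lower. These were Cftr (log2 change 2.23, adjusted p = 0.0167), Car2 (2.91, adjusted p = 0.0350) and Kcnn4 (1.16, adjusted p = 0.0220). Slc4a4 did not pass (1.62, adjusted p = 0.0760). The groups did not overlap for these 4 and Aqp5, all higher, and for Aqp1, which was lower, against 54.4% and 14% of all genes. After median-of-ratios scaling 1 of the 8, Cftr, was called higher and 1, Aqp1, lower, where the shares over all genes were 8% and 5.78%. Without the gut-bearing library only Cftr was called higher, at 1.32 (adjusted p = 0.0364), and Slc26a6 lower, against 13.4% and 2.32% of all genes, and Car2 (1.43, adjusted p = 0.0963) and Kcnn4 (0.86, adjusted p = 0.123) were not called. Slc4a4 was then at 0.64, Aqp1 at -0.82 and Aqp5 at 1.34, with adjusted p of 0.333, 0.138 and 0.248. This comparison shares its saline mice with AP against saline mice, so their calls are not independent of each other.

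Markers of the duct moved apart from one another. Of 16 duct markers, 8 rose and 0 fell in AP against saline mice, with a median log2 change of 1.20, and their summed level went from 2613 and 2924 TPM to 34247 and 36619 TPM. The sum was 32526 and 25662 TPM in pretreated mice, and 0 of 16 were called against AP. The sum is mostly Krt8 and Krt18, simple epithelial keratins that acinar cells also make. Krt19, Cldn4 and Epcam also rose in AP mice (log2 changes of 4.17, 7.22 and 2.90). So did Spp1, Krt7 and Ehf (2.34, 1.29 and 1.12), though Krt7 and Ehf were not called after median-of-ratios scaling. The duct transcription factor Sox9 (log2 change 0.28, adjusted p = 0.539 by limma) did not pass. Sox9 and these rises were named after their values were seen. Acinar markers, of which 7 of 17 had values, summed to 130716 and 113112 TPM in saline mice, 46003 and 31645 in AP mice, and 23925 and 21020 in pretreated mice, with 5 of the 7 falling in AP. The sum is mostly Sycn and Klk1, proteins of the secretory granules. The transcription factors Bhlha15 and Rbpjl went the other way in pretreated against AP mice. There they were 2 of 7 called higher by limma (1.73 and 1.08, adjusted p = 0.00381 and 0.0327), and the list's median was 0.55. Without the gut-bearing library, which leaves 1 pretreated mouse, the log2 changes of Bhlha15 and Rbpjl were 1.68 and 1.10. TPM are shares of a fixed total, so a change in abundant transcripts moves the share of the others. The part of either list in the rise of Cftr was not tested.

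The wider secretion machinery was read from 5 lists, whose counts stand against 18.2% of all genes higher and 4.03% lower in AP against saline mice. Without the gut-bearing library the same genes were called in this comparison, save that Car4 (adjusted p = 0.0718) and P2rx7 (adjusted p = 0.0617) were lost and the potassium channel subunit Kcne3 (adjusted p = 0.0481) was gained. Among 18 tested anion and bicarbonate carriers, 4 rose and 0 fell in AP against saline mice. Slc26a9, a chloride transporter of epithelial surfaces, was at 0 and 0.134 TPM in saline mice, 24.7 and 31.3 in AP mice, and 26.7 and 26.8 in pretreated mice, a log2 change of 5.65 (adjusted p = 1.4e-05) in AP. It was near absent from both saline mice and alike in the 4 others, the gut-bearing library included. The potassium-chloride cotransporter Slc12a4 rose by 1.09 in log2 (adjusted p = 0.00234), and the other calls, in genes with a mean below 10 TPM, were Slc4a3 and Slc26a11. After median-of-ratios scaling 1 of the 18 was called.

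Among 13 tested potassium channels and sodium pump subunits, 2 rose and 0 fell in AP. Fxyd5, a small pump regulator, rose by 3.24 (adjusted p = 0.000351). Kcnj15, an inward rectifier potassium channel with a mean below 10 TPM that was singled out after its values were seen, was the 1 gene of the 5 lists called in pretreated against AP mice. It was at 2.10 and 0.884 TPM in saline mice, 2.82 and 4.20 in AP mice, and 26.7 and 17.6 in pretreated mice, a log2 change of 2.49 (SE 0.36). Both pretreated mice were far above the 4 others. Without the gut-bearing library, which leaves 1 pretreated mouse, the change was 2.78.

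Among 8 tested carbonic anhydrases, 2 rose and 2 fell in AP. Car9, a membrane enzyme facing outward, was at 5.58 and 1.84 TPM in saline mice, 42.9 and 47.3 in AP mice, and 122 and 121 in pretreated mice (log2 change 3.59 in AP, adjusted p = 0.000711). Its level in pretreated mice was above that in AP mice, with a log2 change of 1.42 that did not pass (adjusted p = 0.172, and 0.584 without the gut-bearing library). Car13, a cytosolic form, rose by 4.14 (adjusted p = 0.00114), from 1.19 and 0.366 TPM to 19.5 and 22.2 TPM. The low-level Car4 and Car15 fell.

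Of 5 other water channels tested, 2 fell in AP against saline mice and 1, the low-level Aqp11, rose. Aqp12, found in acinar cells, was the highest aquaporin, at 1418 and 1450 TPM in saline mice, 383 and 343 in AP mice, and 229 and 177 in pretreated mice (log2 change -1.98 in AP, adjusted p = 0.000147). Aqp8, an apical water channel of acinar cells, was at 40.3 and 47.2, 10.3 and 17.6, and 4.32 and 3.77 TPM in the same groups (log2 change -1.66, adjusted p = 0.00429). Both fell alongside the acinar markers, whereas Aqp1 in AP mice overlapped with saline mice.

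Of 32 tested receptors and regulators of secretion, 7 rose and 2 fell in AP, and 4 rose and 5 fell after median-of-ratios scaling. The falls were the receptors for vasoactive intestinal peptide, which drives secretion through cyclic AMP. Vipr1 was at 26.3 and 20.4 TPM in saline mice and at 7.89 and 7.40 in AP mice (log2 change -1.54, adjusted p = 0.00211), and Vipr2 at 35.1 and 33.7 and at 12.0 and 10.2 TPM (-1.59, adjusted p = 0.000298). With polyI:C pretreatment Vipr1 was at 15.1 and 22.9 TPM, above both AP mice, without passing (1.23, adjusted p = 0.0625), and the change was 0.94 (adjusted p = 0.361) without the gut-bearing library. F2rl1, a receptor that trypsin activates, rose by 1.87 (adjusted p = 0.00355). Slc9a3r1, the scaffold that holds Cftr at the apical membrane, rose by 1.39 (adjusted p = 0.00150) and Ezr, which ties that scaffold to actin, by 1.72 (adjusted p = 0.000449). P2ry6, P2rx7, Adora2b and Piezo1, with means below 10 TPM, were the other rises. After scaling, Slc12a4 and Slc9a3r1 were no longer past 2-fold.

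**Figure D4:**
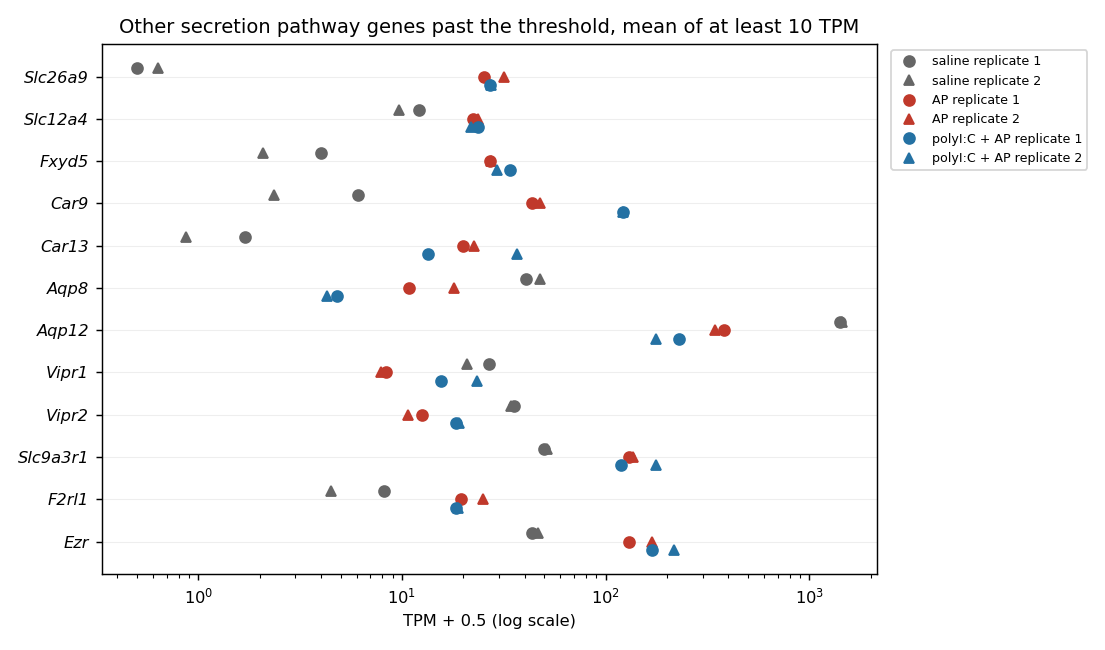
TPM + 0.5 (log scale) of 12 further secretion genes averaging 10 TPM or more that were called in AP against saline mice, in each of the 6 mice. Slc26a9 goes from at most 0.134 TPM in saline mice to at least 24.7 TPM in the others, while Aqp8, Aqp12, Vipr1 and Vipr2 are lower in AP mice than in saline mice.

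Several members of these lists were high only in the gut-bearing library, without being called. Slc26a3, the intestinal chloride-bicarbonate exchanger, was at 19.3 TPM there and at most 0.327 TPM elsewhere. Gucy2c, the guanylin receptor of gut epithelium, was at 27.5 TPM there and at most 0.365 TPM elsewhere. Slc4a7, a sodium-bicarbonate cotransporter, was at 187 TPM there and between 47.8 and 53.8 TPM elsewhere.

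The genes most alike to each of the 8 were sought among tested genes averaging 10 TPM or more, by Pearson's r of log2(TPM + 0.5) over the 6 samples. These 6 points fall into 3 groups and include the gut-bearing library, so r describes them only. For Cftr they were Hist1h4f, Pdlim5 and Hist1h4k (r of 0.997, 0.994 and 0.994), for Kcnn4 Aco1, Parl and Manbal (each 0.994), and for Car2 Cox5a, Ces2c and Ckb (0.993, 0.991 and 0.991). For Slc4a4 they were Arg2, Mtmr4 and Atp1b1 (0.998, 0.992 and 0.989), and for Slc26a6 Slc25a45, Adh1 and Mzt2 (0.983, 0.969 and 0.959). For Aqp1 they were Kidins220, Ap5b1 and Prss1 (0.968, 0.961 and 0.954), for Aqp5 Grpel1, Bod1 and Eral1 (0.995, 0.995 and 0.995), and for Slc12a2 Nt5m, Maoa and Cdkn2aip (0.959, 0.948 and 0.946). Over the 5 samples lacking the gut-bearing library 0 of these 24 were among the 3 most alike, and Cftr then had Tstd2, Gch1 and Kat5, and Kcnn4 had Pacsin3, Zfp422 and Sprr1a. Among the 8 themselves, r between Cftr and Car2 was 0.943 over 6 samples and 0.947 without the gut-bearing library. Between Cftr and Slc26a6 it went from 0.0323 to -0.833, since that library held the highest value of both.

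The promoters of the 2 genes called in AP, Cftr and Kcnn4, are printed to show how unlike they are in sequence. Each is the 250 bases before the RefSeq start on GRCm38.p6, plus strand, 5′ to 3′, at chr6:18170437-18170686 for Cftr and chr7:24370013-24370262 for Kcnn4, with matches to the searched motifs in capitals.
Cftr: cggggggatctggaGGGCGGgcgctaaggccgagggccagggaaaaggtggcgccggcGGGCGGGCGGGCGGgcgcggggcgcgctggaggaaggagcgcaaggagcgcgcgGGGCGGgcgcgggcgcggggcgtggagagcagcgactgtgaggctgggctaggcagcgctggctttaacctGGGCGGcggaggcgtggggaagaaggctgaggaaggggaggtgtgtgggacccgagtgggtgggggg
Kcnn4: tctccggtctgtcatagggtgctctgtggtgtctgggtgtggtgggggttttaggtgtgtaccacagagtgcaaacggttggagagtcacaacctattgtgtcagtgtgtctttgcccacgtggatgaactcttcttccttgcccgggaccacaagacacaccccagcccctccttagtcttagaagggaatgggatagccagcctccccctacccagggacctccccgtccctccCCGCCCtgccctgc

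The capitals are GC boxes, GGGCGG or its reverse complement. The Cftr promoter was 76.4% G or C and held 6 of them, 3 of which overlap in 1 run, while that of Kcnn4 was 58.8% G or C with 1, on the minus strand, and the median over all promoters was 52.4%. Of the 8 genes, 6 had a promoter in the table, with 7 windows in all, and 6 of these windows held a GC box, as did 35.7% of 32851 promoters over the same window (250 bases before and 50 after the start). Searched on both strands in the same way, the AP-1 motif TGANTCA (7.81% of promoters), the cyclic AMP response element TGACGTCA (1.79%), the interferon response motif (3.44%), the forkhead motif TGTTTAC (3.65%) and the TATA box TATAAA (13.6%) had 0 matches in the 7 windows. Car2 and Slc12a2 had no entry.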

How the data were processed

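RNA-sequencing libraries of 6 pancreases (3 groups of 2) were used, grouped by the treatment in the labels. Before deposit, the authors used Trimmomatic for adapter and quality trimming, STAR for alignment to mm10, HTSeq for counts per gene and DESeq2 for group comparisons. The deposited tables hold TPM per Ensembl gene, and the step from counts to TPM is not given in the sources used here. The labels name both a ribosomal RNA removal kit and a poly(A) kit. Of 22556 identifiers, 22490 were found in GENCODE M21, which gave symbols, exon lengths and GRCm38 coordinates.

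limma 3.58.1 (R 4.3.3) was fitted to log2(TPM + 0.5) with 1 coefficient per group and spread shared by the 6 mice. Genes averaging 1 TPM or more and having an exon length were tested (16778), with a prior variance following log2(mean TPM × exon length + 1). A gene was called at 2-fold, the study's limit, together with a p of 0.05 or less after Benjamini-Hochberg adjustment over all tested genes. The model was tested on simulated data. Reads on the listed genes of each library were estimated from the spacing of low TPM × length. Of the low values (up to 20 reads), 50.7% to 62.0% lay within 0.1 of a whole number. Named genes were the 8, list genes called in AP against saline or pretreated against AP mice averaging 10 TPM or more, up to 3 leading markers per list, and the 3 most similar genes. The members and lists were chosen with earlier results of these data known. Alternatives were other pseudocounts, filters, scalings, priors, thresholds, voom on estimated reads, 2-group fits, a block for the replicate number, and fits lacking 1 mouse. Leaving out the gut-bearing library together with scaling was added after the data were seen. Markers of islet, stellate and fat cells were also summed. Some genes of the lists are not reported here.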

Additional observations from a re-analysis of the deposited data

How the results depend on the processing

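In AP against saline mice, 2 of the 8 genes were called, and 1 was called with no filter on low values, with a mean of at least 5 TPM, after median-of-ratios or upper-quartile scaling, with either other prior variance and with voom on estimated reads. Cftr was the call lost in each, with adjusted p between 0.0512 and 0.233, except with the mean of at least 5 TPM, where the other gene was not tested. Leaving out 1 mouse gave 0 to 3 calls, and the 0 came without AP replicate 1. Scaling without the gut-bearing library gave 3, of which Slc26a6 was lower. In pretreated against AP mice, 0 of 8 were called in every alternative run. In pretreated against saline mice, 3 were called, all higher. The call was 1 with a constant prior variance (Kcnn4), 0 with only the 2 groups compared, 1 with voom (Aqp1, lower) and 1 without the gut-bearing library after median-of-ratios scaling (Slc26a6, lower), so Cftr and Car2 were lost in each. Leaving out 1 mouse gave 0 to 4, with 0 without saline replicate 1, AP replicate 1 or AP replicate 2. The cause was not tested.

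Directions turned as follows. Slc12a2 in AP against saline mice was -0.33 after median-of-ratios scaling, -0.36 after upper-quartile scaling, -0.15 with voom and -0.33 after scaling without the gut-bearing library, and against saline in pretreated mice -0.31, -0.36, -0.13 and -0.44. Against AP it was -0.0011 after upper-quartile scaling, and -0.11 after median-of-ratios scaling without the gut-bearing library, where Cftr was -0.72, Slc26a6 -0.33 and Car2 -0.38. With 1 mouse left out at a time, Aqp1 in AP against saline mice ranged from -0.39 to 0.23 (positive without saline replicate 1 or AP replicate 2), and Slc26a6 in pretreated against saline mice from -1.22 to 0.65 (positive without pretreated replicate 1). In the same way, pretreated against AP mice gave -0.69 to 1.13 for Cftr, -0.29 to 1.57 for Slc26a6, -0.34 to 2.60 for Car2, -0.62 to 0.036 for Aqp5 and -0.065 to 0.15 for Slc12a2, with the direction turning in each when pretreated replicate 2 was left out.

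Same-numbered mice did not deviate together (correlations over 16814 genes of 0.0075, -0.0039 and 0.035). With 2 mice a group, these correlations cannot show whether the numbers pair the mice. With the replicate number as a block, 2, 0 and 3 genes were called in the 3 comparisons, as without it. Over all genes, the alternatives gave 1431 to 5558 genes higher and 474 to 1265 lower in AP against saline mice, and 0 to 328 higher and 0 to 403 lower in pretreated against AP mice. Against saline in pretreated mice they gave 811 to 5638 higher and 372 to 1048 lower. Depth limits Cftr, Kcnn4, Car2 and Aqp5 in saline mice, each with at most 16 estimated reads per library.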

Other observations

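Stellate and fibroblast markers rose in AP for 4 of 9 genes (Col1a1, Col1a2, Col3a1 and Lum). Their summed level was 893 and 640 TPM in saline mice, 831 and 1032 in AP mice and 884 and 736 in pretreated mice. The leading gene of the sum, Dcn, went the other way, at 671 and 540 TPM in saline mice and 308 and 425 in AP mice. Its log2 change was -0.73 (adjusted p = 0.0327 by limma), short of 2-fold, and it was called lower after median-of-ratios scaling. Islet markers summed to 2219 and 1861 TPM in saline mice, 2341 and 1759 in AP mice, and 1310 and 1672 in pretreated mice. Of 8 tested, 0 were called in AP against saline mice. In pretreated against saline mice 1 was called lower, Ins2 (log2 change -1.22, adjusted p = 0.0245 by limma), and 3 after median-of-ratios scaling. Fat cell markers summed to 51.5 to 249 TPM, with 0 of 4 tested called in AP against saline mice.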
